A study of Mus musculus with 9 samples.

Results

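The 31 genes described here are mouse genes that type I interferon is known to induce. They were chosen by symbol, and all 31 were found among the 53342 genes of the count table. All 31 also passed the filter on low counts, which left 19314 genes for testing. RNA was sequenced from the bladder of wild-type C57BL/6N mice in 3 groups of 3 biological replicates. In the H2O2/saline group, 1.5% hydrogen peroxide was infused into the bladder of female mice aged 8 weeks on day 0, and saline was injected into the peritoneum on days 0 and 4. The H2O2/SB431542 group had the same infusion and 2 injections of 1.2 mM SB431542, an inhibitor of TGF-β type I receptor kinases, in place of saline. The control mice carry the label untreated, whereas the study's methods describe a bladder infusion of saline for the controls of the inhibitor experiment. Its account of the RNA sequencing calls the controls sham. Which of these applied was not resolved here. Bladders were taken on day 10, and RNA came from a hemisphere of each organ. Mice given SB431542 without H2O2, and days before day 10, were not analysed here. The comparisons ask which interferon response genes stood higher after H2O2, and which of them were as high or higher when SB431542 was given.

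Type I interferons signal through a receptor made of Ifnar1 and Ifnar2, whose kinases Jak1 and Tyk2 phosphorylate the transcription factor Stat2. With Irf9 it enters a complex that binds the interferon-stimulated response element (ISRE) upstream of its target genes, among them enzymes that degrade viral RNA, proteins that bind it, and the ubiquitin-like protein Isg15. The response is best known as a defence against viruses, and Irf7, itself a target, drives further production of interferon.

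The promoter sequences below show where that element lies in the 4 members that hold its core and had the lowest p for H2O2/saline against control.
They come from the RefSeq promoter table of build GRCm38.p6, run 5′ to 3′ on the strand of the gene, and end before its start. Capitals mark every base of an ISRE core, which was searched as 2 copies of GAAA with any 2 bases between them, or 2 copies of TTTC spaced likewise for the opposite strand, with overlapping matches joined.
Oas1a: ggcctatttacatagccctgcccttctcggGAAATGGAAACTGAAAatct
Oas3: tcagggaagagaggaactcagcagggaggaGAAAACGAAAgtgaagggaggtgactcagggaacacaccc
Isg15: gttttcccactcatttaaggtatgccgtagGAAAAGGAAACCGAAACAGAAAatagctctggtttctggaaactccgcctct
Bst2: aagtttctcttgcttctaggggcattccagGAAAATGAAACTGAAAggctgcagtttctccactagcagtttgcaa
The Oas1a stretch lies on the minus strand at chr5:120907526-120907575 and the Oas3 stretch on the minus strand at chr5:120777695-120777764. Those of Isg15 and Bst2 are on the minus strand at chr4:156200845-156200926 and chr8:71537557-71537632. Isg15 holds 3 overlapping copies of the core, Oas1a and Bst2 hold 2 each, and Oas3 holds 1.

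Of the 31 members, 22 were matched in the promoter table. The core was present within 250 bases before the start in 10 of these 22 (45.5%), against 936 of 27025 genes in the table (3.46%). The 10 were Stat2, Oas1a, Oas3, Isg15, Ifit1, Ifit3, Ifit3b, Rsad2, Bst2 and Trim30a. The gamma-activated sequence TTCNNNGAA, which reads the same on both strands, was present in 4 of the 22 (18.2%), namely Irf1, Oas1a, Ifit2 and Bst2, against 8.13% of all genes in the table. Dhx58, Ifi27l2a, Parp14, Mx2, Usp18, Rtp4, Oas2, Mx1 and Zbp1 had no entry. A match is a description of these letters, and no binding was measured.

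The 9 libraries held 37329213 to 41055328 counts each. Markers of bladder were high throughout, with the urothelial uroplakin Upk1a at 3081 to 10964 CPM (counts scaled to a common library size) and the smooth muscle actin Acta2 at 5947 to 12544 CPM. The libraries numbered 1 stood apart in every group, since the fat cell gene Cidec was at 33.7 CPM in control 1, 14.1 in H2O2/saline 1 and 6.08 in H2O2/SB431542 1 and at 0.480 CPM or less in the other 6 libraries. Skeletal muscle actin Acta1 was present in all 9, at 519 to 1400 CPM.

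Interferon response genes stood higher in H2O2/saline than in control as a rule, but few changes passed the test. The transcripts that rose were Irf7 (6.19-fold) and Oas1a (9.99-fold), a factor that drives interferon genes and an enzyme that senses double-stranded RNA, and 0 members fell. Thus 2 of 31 members were called higher by edgeR's quasi-likelihood test at a Benjamini-Hochberg adjusted p under 0.05, against 0.0466% of all genes tested, and 0 of 31 lower, against 0.00518%. At an unadjusted p under 0.05, 22 members were higher and 0 lower, where 9.88% of all genes were higher and 7.96% lower. The log2 fold change was positive for 27 members, with a median of 1.38 beside −0.02 over all genes tested, and was above 0 for 48.6% of all genes. In 19 members every H2O2/saline library lay above every control library, against 9.70% of all genes, and in Ifit2 every one lay below, against 8.96%. As an alternative, libraries of equal number were treated as pairs, although no label says what a number shares. In that fit with pairs 16 members were called higher and 0 lower (background 2.97% and 1.82%). The 16 were Irf7, Irf9, Oas1a, Oas3, Oasl1, Oasl2, Isg15, Usp18, Ifit3, Ifit3b, Ifi27l2a, Dhx58, Zbp1, Mx1, Bst2 and Xaf1. The count rested on single libraries and on the model. DESeq2 called 17 members higher and 0 lower (background 5.11% and 2.98%) and limma-voom 0, and edgeR called 17 higher and 0 lower without H2O2/saline 1 (background 5.52% and 3.91%) and 0 without control 2, control 3, H2O2/saline 2 or H2O2/saline 3 (background 0% to 0.00518%). The calls over all genes thus moved with the same libraries. In whole bladder, a change in the number of cells that express a gene and a change in RNA per cell cannot be told apart.

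Between H2O2/SB431542 and H2O2/saline no member passed the test, and the estimates lay on both sides of 0. The level with SB431542 over that with saline was 4.16-fold for the GTPase Mx2, 3.72-fold for the RNA-binding Ifit2, 2.66-fold for Rsad2 and 2.21-fold for Cmpk2, and the lowest was 0.573-fold for Rtp4. With edgeR, 0 members were called higher and 0 lower, and the background was 0% in each direction. At an unadjusted p under 0.05, 1 member was higher (Ifit2) and 1 lower (Ifi27l2a), where 3.86% of all genes were higher and 4.98% lower. The mean level with SB431542 was at or above the saline mean for 13 members and below it for 18, and the median log2 fold change was −0.14 beside 0.02 over all genes. That median moved from −0.40 without H2O2/SB431542 3 to 0.01 without H2O2/saline 2, so its sign rested on single libraries. All 3 SB431542 libraries lay above all 3 saline libraries for Ifit2, Ifih1 and Mx2 (3 of 31, against 8.46% of all genes), and below them for Irf1 and Bst2 (2 of 31, against 7.37%). The 95% interval of the difference included 0 for 29 members. It lay between a halving and a doubling for 7, namely Irf7, Irf9, Irf1, Stat2, Usp18, Ifi35 and Bst2, so that for the other 24 a difference of at least that size was not excluded. DESeq2 called 1 member higher, Ifit2 (background 0.0754%), and 0 lower (0.17%), and gave no adjusted p for Mx2.

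**Figure D1:**
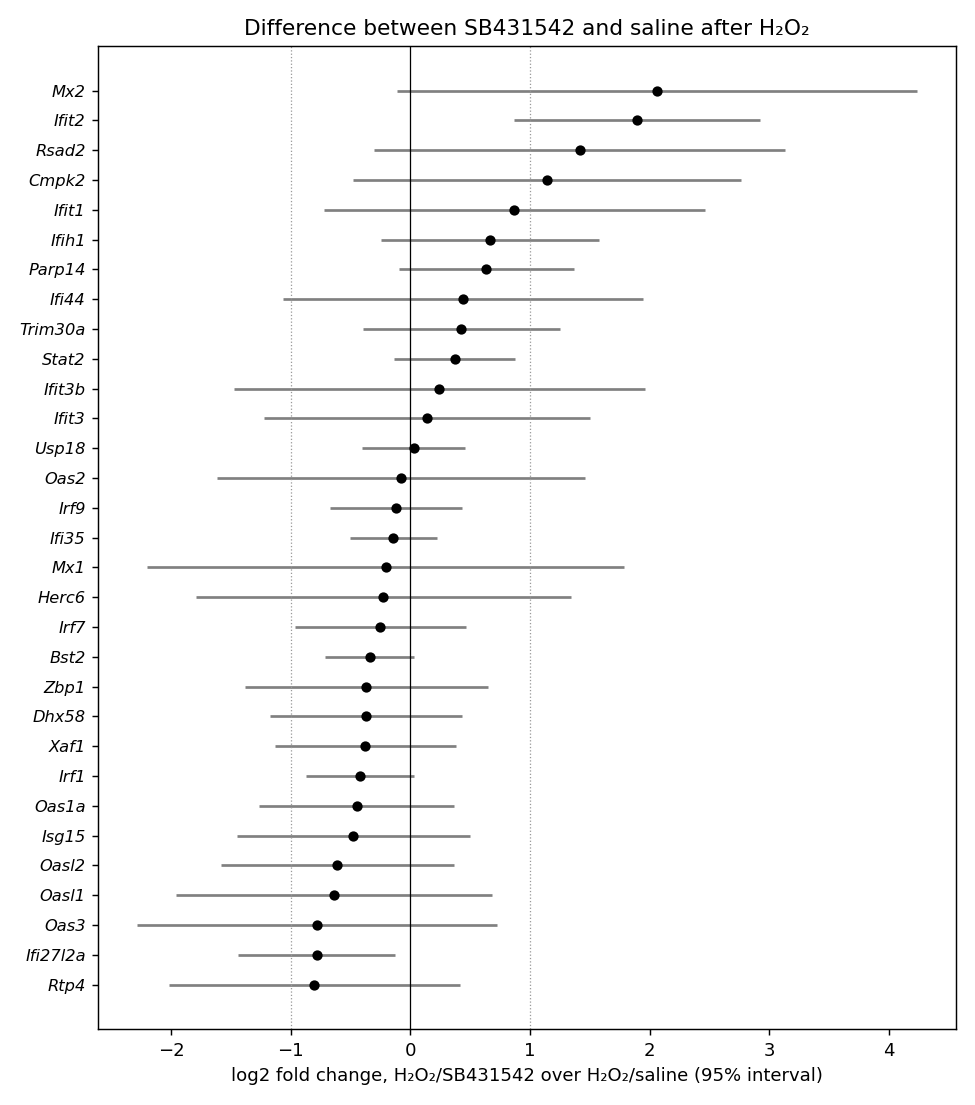
Points are the log2 fold change of H2O2/SB431542 over H2O2/saline for each of the 31 interferon response genes and lines are its 95% interval, derived from the edgeR test statistic, with 3 libraries a group. The points run from −0.80 for Rtp4 to 2.06 for Mx2, and the lines of Ifit2 and Ifi27l2a alone do not cross 0.

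Against control, H2O2/SB431542 had 29 members with a positive log2 fold change, as had 50.2% of all genes, and the median was 1.57 beside 0.00 over all genes. With edgeR 0 members were called higher, against 0.0104% of all genes, and 0 lower, against 0.00518%, and the lowest adjusted p was 0.0647, that of Irf7 and Oas1a. At an unadjusted p under 0.05, 21 were higher and 0 lower (background 4.36% and 3.24%). In 19 members all 3 SB431542 libraries lay above all 3 controls (background 7.98%) and in 0 members below (6.49%). DESeq2 called 13 members higher and 0 lower (background 0.839% and 0.293%). The H2O2/saline and control comparisons share libraries with this one, so their counts are not independent. By mean level, 17 members were lowest in control and highest in H2O2/saline, and 9 were lowest in control and highest in H2O2/SB431542. The 9 were Stat2, Ifit1, Ifit3, Ifit3b, Ifi44, Rsad2, Usp18, Trim30a and Cmpk2. Ifit2, Ifih1, Mx2 and Parp14 were lowest in H2O2/saline, and Herc6 was lowest in H2O2/SB431542.

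**Figure D2:**
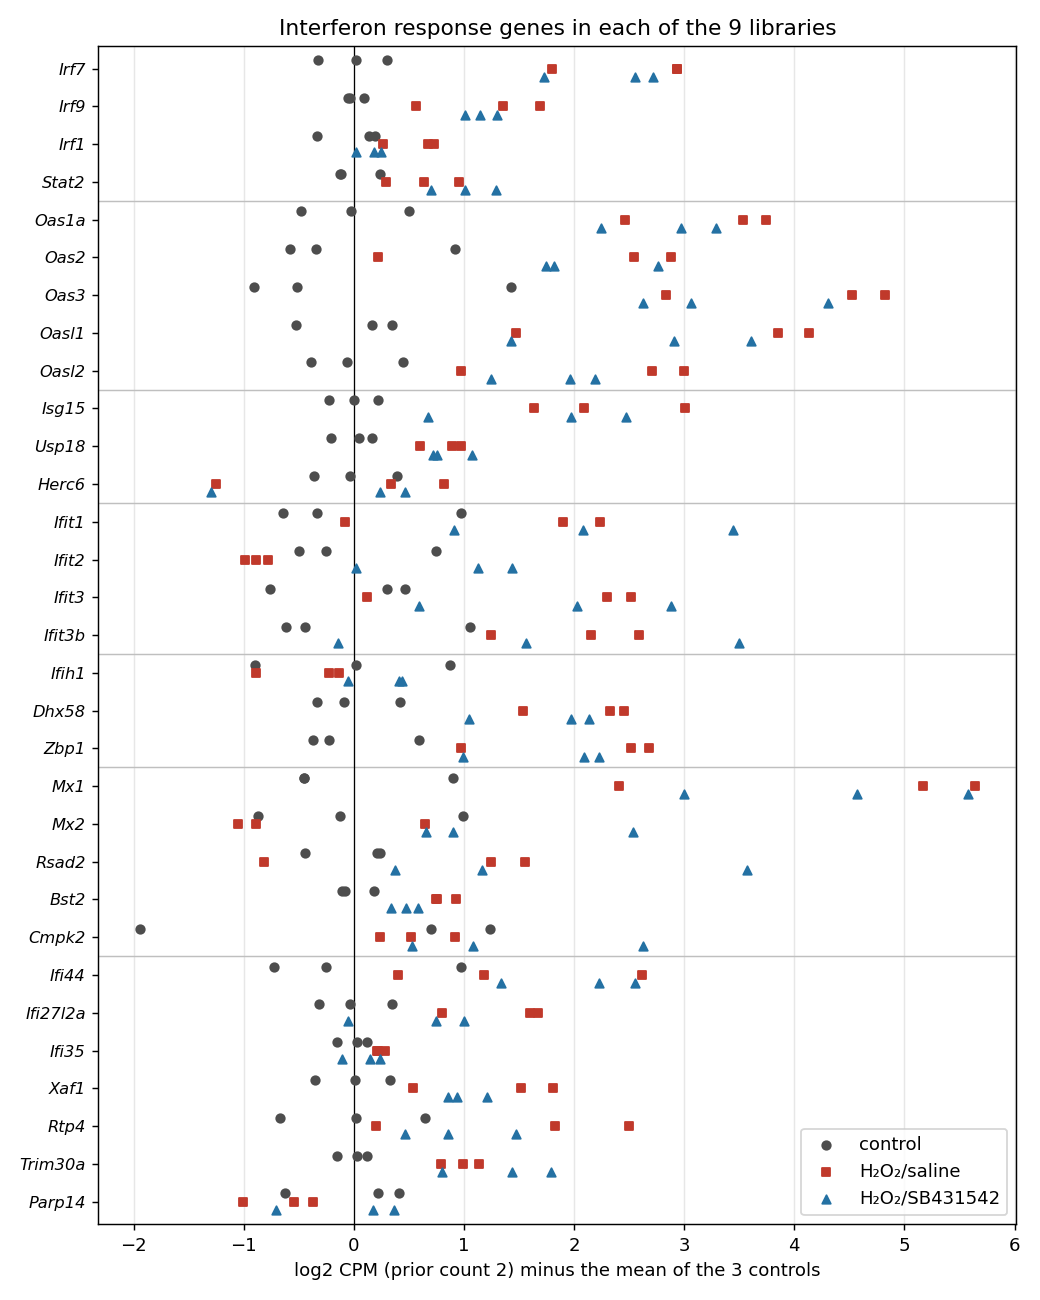
Each point is 1 library, drawn as log2 CPM minus the mean of the 3 controls, for the 31 genes grouped by role from transcription factors (top) to other induced genes (bottom). In 19 genes all red squares (H2O2/saline) lie right of all grey circles (control), and in 26 the blue triangles (H2O2/SB431542) overlap the squares.

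Among the transcription factors, Irf7, which switches on interferon genes, stood at 7.82, 9.504 and 6.13 CPM in the controls, 27.0, 59.1 and 59.2 in H2O2/saline and 25.6, 45.5 and 51.0 in H2O2/SB431542. Both treated groups lay above all controls and overlapped each other. The log2 fold change of H2O2/saline over control was 2.63 ± 0.35 (SE; edgeR adjusted p = 0.0236, and 0.00321 in the fit with pairs), and that of SB431542 over saline was −0.25 (95% interval −0.97 to 0.46). Irf9, the DNA-binding partner of Stat2, was at 15.1, 13.8 and 13.6 CPM in the controls, 21.0, 45.8 and 36.4 in H2O2/saline and 28.5, 34.9 and 31.4 in H2O2/SB431542. All 6 treated libraries were above the controls, and the SB431542 values fell within the saline range. Its log2 fold change over control was 1.28 ± 0.26 in H2O2/saline (edgeR adjusted p = 0.0600, and 0.0208 in the fit with pairs) and 1.16 with SB431542.

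Stat2, which brings activation to that complex, stood higher by group without passing the test, from 13.1, 16.8 and 13.1 CPM in the controls to 17.5, 22.1 and 27.7 in H2O2/saline and 23.2, 28.8 and 34.9 in H2O2/SB431542. The SB431542 libraries began above the lowest saline library and ended above the highest, and the difference between these groups was 0.37 (−0.14 to 0.87). Irf1, a factor induced by interferon gamma as well, also lay above all controls in H2O2/saline, but was lower with SB431542 than with saline. It stood at 18.4, 25.6 and 26.5 CPM in the controls, 27.8, 38.5 and 37.1 in H2O2/saline and 26.3, 23.5 and 27.6 in H2O2/SB431542. The log2 fold change of H2O2/saline over control was 0.55 ± 0.21 (edgeR adjusted p = 0.190). Every SB431542 library was below every saline library and within or close to the control range. The difference between SB431542 and saline was −0.42 (−0.87 to 0.03, edgeR adjusted p = 0.584).

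The 2-5A synthetase group showed the largest median of any role with H2O2, 3.32 on the log2 scale over its 5 members, and a median of −0.61 for SB431542 over saline. Oas1a makes the oligoadenylate that activates RNase L, and stood at 1.85, 2.69 and 1.34 CPM in the controls, 10.6, 25.9 and 22.4 in H2O2/saline and 9.14, 18.8 and 15.1 in H2O2/SB431542. The lowest H2O2/saline library was several times the highest control, and the SB431542 libraries overlapped the saline ones. The log2 fold change over control was 3.32 ± 0.41 (edgeR adjusted p = 0.0150) in H2O2/saline and 2.87 ± 0.41 (adjusted p = 0.0647) with SB431542, and the difference between them was −0.45 (−1.26 to 0.36). Oas1a matched its neighbour Oas1g at 97.4% identity over 100% of the transcript, so reads may have been shared between the pair, and Oas1g had group means of 0.895 ± 0.534, 6.56 ± 3.79 and 3.80 ± 1.27 CPM. In the fit with pairs, the adjusted p of Oas1a was 0.000988 for H2O2/saline against control.

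Oas3, a larger synthetase, was at 0.106, 0.739 and 0.155 CPM in the controls, 2.05, 6.72 and 8.27 in H2O2/saline and 1.76, 2.40 and 5.76 in H2O2/SB431542. Control 2 was the high control, and all treated libraries were above it. Its log2 fold change was 4.08 ± 0.80 in H2O2/saline (edgeR adjusted p = 0.0600, and 0.0131 in the fit with pairs) and its difference between SB431542 and saline −0.78 (−2.28 to 0.72). The lowest 2 control libraries held 4 and 6 counts, so the size of that fold is loosely set. Oasl1, an OAS-like protein that in mice restrains translation of Irf7, was at 1.90, 2.16 and 1.16 CPM in the controls, 4.77, 30.4 and 25.03 in H2O2/saline and 4.63, 12.9 and 21.1 in H2O2/SB431542. Library 1 was the low one in both treated groups, yet still above all controls. Oasl2, an OAS-like protein with ubiquitin-like domains, had group means of 2.86 ± 0.867, 15.5 ± 8.93 and 10.2 ± 3.19 CPM, and Oas2 had 0.385 ± 0.262, 1.82 ± 1.26 and 1.73 ± 0.756 CPM. Oas2 was the only member of the group whose saline and control libraries overlapped, through H2O2/saline 1 at 0.404 CPM.

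Isg15 is a ubiquitin-like protein that is joined to other proteins, and was at 1.74, 2.40 and 2.06 CPM in the controls, 6.47, 16.9 and 8.91 in H2O2/saline and 3.31, 8.22 and 11.6 in H2O2/SB431542. All treated libraries exceeded the controls, H2O2/saline 2 was the highest and the treated groups overlapped. The log2 fold change over control was 2.38 ± 0.47 in H2O2/saline (edgeR adjusted p = 0.0600, and 0.0135 in the fit with pairs) and 1.90 with SB431542. The Isg15 transcript matched the gene AC151275.1 at 95.2% identity over 63.8% of its length, so reads may have been shared. Usp18, which removes Isg15 from proteins and dampens the interferon receptor, was at 17.0, 13.1 and 15.7 CPM in the controls, 23.2, 29.9 and 28.4 in H2O2/saline and 25.1, 25.7 and 32.2 in H2O2/SB431542. The treated groups had nearly the same range, and their difference of 0.03 (−0.40 to 0.46) was among the most narrowly bounded of the members. Herc6, the mouse ligase for Isg15, gave 0.831 ± 0.234, 0.941 ± 0.588 and 0.803 ± 0.444 CPM, its groups overlapped in every comparison, and libraries numbered 2 were low in both treated groups (0.310 and 0.300 CPM). A part of its transcript, 26.7%, matched Gm45193 at 100% identity.

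The IFIT proteins bind foreign RNA and block its translation, and Ifit2 departed from the rest of its family. It was at 1.96, 1.64 and 3.97 CPM in the controls, 1.16, 1.34 and 1.24 in H2O2/saline and 2.36, 5.17 and 6.40 in H2O2/SB431542. The H2O2/saline libraries were closely grouped and below all controls, and every SB431542 library was above every saline library. The difference between SB431542 and saline was 1.90 ± 0.47 (95% interval 0.87 to 2.93), a 3.72-fold change with an edgeR adjusted p of 0.528. It stayed between 1.60 and 2.21 with each library left out in turn, while its adjusted p was 0.0490 with DESeq2 and 0.215 in the fit with pairs. Against control, Ifit2 gave −1.01 ± 0.47 in H2O2/saline and 0.88 ± 0.46 with SB431542, and neither passed the test.

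Ifit1 was at 0.502, 0.396 and 1.31 CPM in the controls, 0.607, 3.23 and 2.55 in H2O2/saline and 1.25, 2.90 and 7.54 in H2O2/SB431542. H2O2/saline 1 and H2O2/SB431542 1 lay within the control range and the other 4 treated libraries above it. Ifit3, which stabilises the binding of RNA by Ifit1 in humans, had 1.08, 2.61 and 2.32 CPM in the controls, 2.05, 9.41 and 11.02 in H2O2/saline and 2.85, 7.80 and 14.1 in H2O2/SB431542. For Ifit3, H2O2/saline 1 was within the control range and all 3 SB431542 libraries above it. Its near-identical neighbour Ifit3b had 0.370, 0.422 and 1.29 CPM in the controls, 1.47, 2.82 and 3.84 in H2O2/saline and 0.531, 1.85 and 7.22 in H2O2/SB431542, with H2O2/SB431542 1 within the control range. These 2 transcripts matched at 97.8% identity, so the split of counts between them is uncertain, and with the pair summed the counts of members called did not change in any comparison. In Ifit1, Ifit3 and Ifit3b the highest value was in H2O2/SB431542 3, and without that library their differences from saline turned to −0.02, −0.48 and −1.18 from 0.87, 0.14 and 0.24.

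Of the sensors, Dhx58 (LGP2), which helps detect double-stranded RNA, was at 2.43, 1.43 and 1.70 CPM in the controls, 5.34, 9.28 and 10.1 in H2O2/saline and 3.79, 7.22 and 8.11 in H2O2/SB431542. Every treated library exceeded the controls, and the log2 fold change was 2.15 ± 0.39 in H2O2/saline (edgeR adjusted p = 0.0600, and 0.0198 in the fit with pairs) and 1.78 with SB431542. Zbp1, a sensor of Z-form nucleic acid that can start necroptosis, had 2.05 ± 0.808, 9.40 ± 4.82 and 7.28 ± 2.91 CPM and the same lack of overlap with the controls. Ifih1 (MDA5), the sensor of long double-stranded RNA, did not follow them, at 2.56, 4.88 and 8.86 CPM in the controls, 2.57, 4.11 and 4.38 in H2O2/saline and 4.63, 6.52 and 6.42 in H2O2/SB431542. Control 3 was its highest library, and the SB431542 libraries lay above all saline libraries but within the control range. The difference of 0.67 (−0.25 to 1.58) had an edgeR adjusted p of 0.672.

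Among the effectors, Mx1, a GTPase against influenza virus, was nearly absent from control bladder, with 3 counts in control 1 and 0 in the other controls. It had 11, 95 and 138 counts in H2O2/saline and 21, 64 and 143 in H2O2/SB431542, so all treated libraries were above the controls. Summed over libraries and scaled by their size, the level was 81.9 times control in H2O2/saline (95% counting interval 27.7 to 400.1) and 69.5 times with SB431542 (23.5 to 340), where the interval covers counting error only. With the spread between libraries counted, edgeR gave 70.3-fold in H2O2/saline (95% interval 10.1 to 489, adjusted p = 0.0600, and 0.0322 in the fit with pairs). With SB431542 it gave 61.0-fold control (8.83 to 421, adjusted p = 0.290), so without pairs Mx1 was called in neither comparison. C57BL/6 mice are known to carry an Mx1 allele that makes no functional protein, and the transcript matched Mx2 at 94.7% identity over 27.2% of its length. Mx2, the related GTPase, had 3, 4 and 16 counts in H2O2/saline and 20, 16 and 70 in H2O2/SB431542, with 4, 8 and 20 in control. The 3 SB431542 libraries equalled or exceeded the highest saline count, and the difference of 2.06 had a wide interval of −0.11 to 4.23.

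Rsad2 (viperin), a radical enzyme that makes a chain-terminating nucleotide, was at 1.11, 0.686 and 1.13 CPM in the controls, 0.520, 2.90 and 2.33 in H2O2/saline and 1.25, 2.20 and 11.9 in H2O2/SB431542. H2O2/SB431542 3 alone was far above all other libraries, and without it the difference from saline went from 1.41 to −0.14. Cmpk2, the neighbouring gene and a nucleotide kinase of mitochondria, was at 1.59, 0.211 and 2.32 CPM in the controls, 1.85, 1.14 and 1.39 in H2O2/saline and 2.08, 1.40 and 6.17 in H2O2/SB431542, again with its highest value in H2O2/SB431542 3. Bst2 (tetherin), which holds budding virus at the cell surface, was at 25.6, 30.7 and 25.02 CPM in the controls, 45.2, 51.4 and 45.5 in H2O2/saline and 34.2, 37.6 and 40.5 in H2O2/SB431542. Its 3 groups did not overlap, with control lowest, SB431542 between and saline highest. The log2 fold change was 0.81 ± 0.17 in H2O2/saline against control (edgeR adjusted p = 0.0607, and 0.0219 in the fit with pairs) and the difference of SB431542 from saline was −0.34 (−0.71 to 0.03, adjusted p = 0.593).

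**Figure D3:**
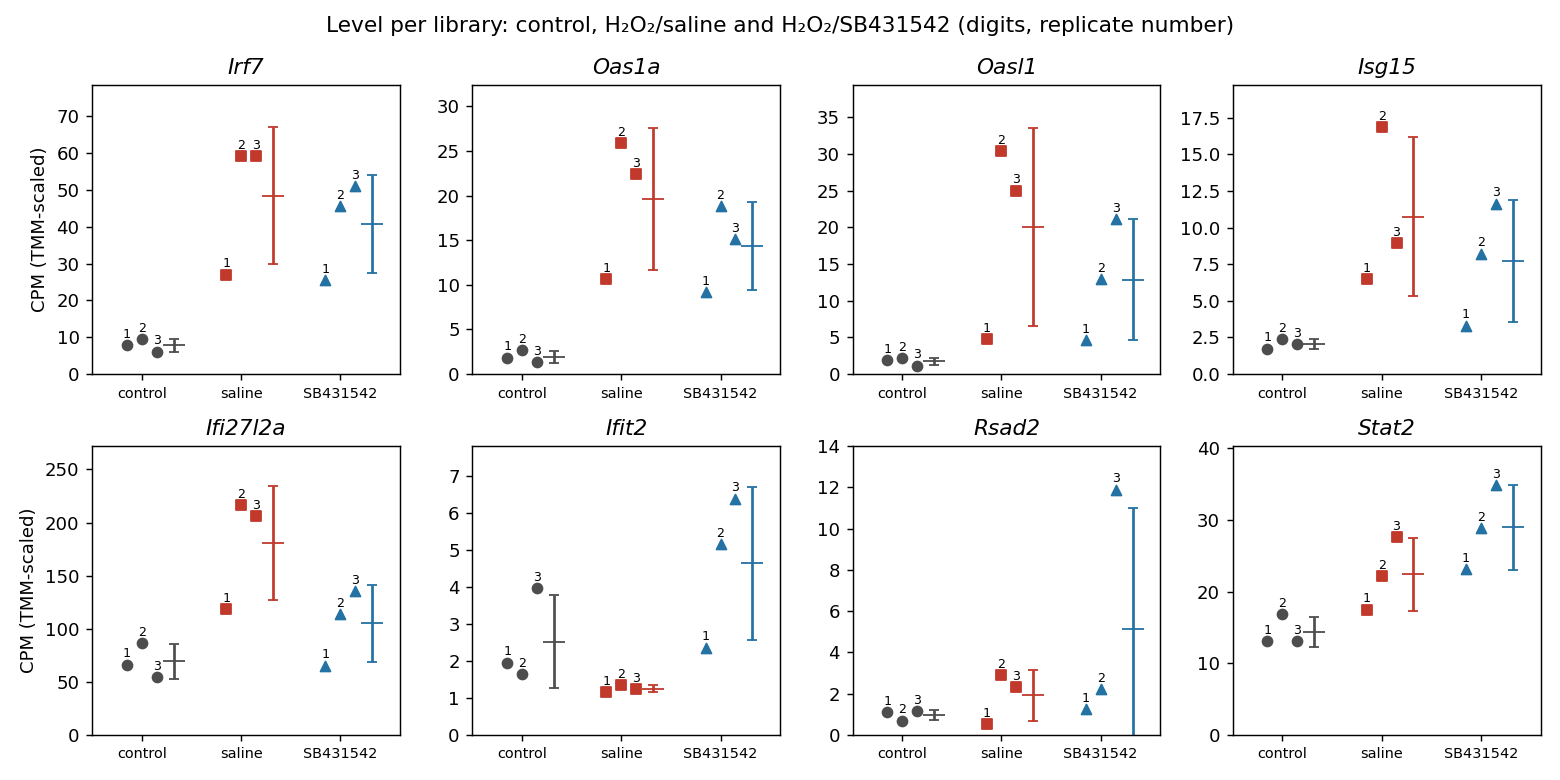
Level in CPM of 8 members in each library (points, numbered by replicate) with the group mean and SD (bar) beside them, and the y axis starting at 0, where the bar of Rsad2 in H2O2/SB431542 is cut. Irf7, Oas1a, Oasl1 and Isg15 are higher in all 6 treated libraries than in control, Ifit2 is 1.16 to 1.34 CPM in H2O2/saline and 2.36 to 6.40 with SB431542, and Rsad2 reaches 11.9 in H2O2/SB431542 3.

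Ifi27l2a, of the Ifi27 family of small membrane proteins, was the member with the lowest unadjusted p among those below saline, at 66.2, 86.6 and 54.7 CPM in the controls, 119, 216 and 206 in H2O2/saline and 65.3, 114 and 136 in H2O2/SB431542. H2O2/saline lay wholly above control, whereas H2O2/SB431542 1 was within the control range. SB431542 differed from saline by −0.78 ± 0.30 (−1.44 to −0.12) with an edgeR adjusted p of 0.528, and from control by 0.60 ± 0.30. A part of its transcript, 51.0%, matched Ifi27l2b at 90.7% identity. Ifi44 had group means of 0.482 ± 0.342, 1.47 ± 1.19 and 1.99 ± 0.794 CPM, Xaf1, which promotes apoptosis, 2.93 ± 0.694, 7.56 ± 3.07 and 5.83 ± 0.769 CPM, and Rtp4, a chaperone of receptors, 1.39 ± 0.633, 4.60 ± 3.04 and 2.64 ± 0.968 CPM. Xaf1 was higher in all treated libraries than in control, and Rtp4 had the lowest log2 fold change for SB431542 against saline, −0.80, with an interval of −2.02 to 0.41. Trim30a, a tripartite motif protein that restrains NF-κB signalling in mice, gave 1.21 ± 0.121, 2.44 ± 0.293 and 3.28 ± 1.09 CPM and was above control in all 6 treated libraries. Its transcript matched Trim30d at 90.5% identity over 45.8% of its length. Ifi35 gave 62.9 ± 5.93, 74.1 ± 2.10 and 67.2 ± 8.17 CPM, with the narrowest interval for SB431542 against saline (−0.50 to 0.22). Parp14, an ADP-ribosyltransferase, was lower in H2O2/saline by mean, at 15.2 ± 5.19, 9.49 ± 2.06 and 14.7 ± 5.18 CPM, and overlapped in every comparison.

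The members varied together by library. The median over members of log2 CPM above the control mean was 0.74 in H2O2/saline 1, 1.69 in H2O2/saline 2 and 1.60 in H2O2/saline 3. With SB431542 it was 0.80, 1.30 and 2.13 in libraries 1, 2 and 3. Controls lay between −0.04 and 0.02. H2O2/saline 1 was the lowest of its group for 28 members and H2O2/SB431542 1 the lowest of its group for 26, whereas H2O2/SB431542 3 was the highest of its group for 23. The range of the medians within each treated group was thus wider than the distance between the groups. Library 1 of each group was also the one with fat cell transcripts, and the part of this in the result was not tested. When the libraries numbered 1 were left out, a check added once the values were known, 17 members were called higher in H2O2/saline than in control (background 6.98%) and 1 lower, Parp14 (background 6.07%), and 13 were called higher with SB431542 than in control (background 1.61%), against 2, 0 and 0 with all libraries.

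Upstream of these genes the interferons themselves were hardly detected. Of 20 type I and III interferon genes, 16 had no count in any library, Ifnb1 among them, none passed the filter, and their summed level was at most 0.396 CPM in any library. Ifnz and Ifne had the highest means, at 0.122 and 0.0656 CPM over the 9 libraries. Ifnz held 1, 8 and 1 counts in the controls, 1, 0 and 0 in H2O2/saline and 8, 10 and 16 in H2O2/SB431542, and was not tested. Interferon gamma (Ifng) also had no count in any library. A transient expression before day 10 was outside the samples analysed.

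The rest of the pathway showed smaller medians than the members. For H2O2/saline against control, the counts below stand beside 9.88% of all genes higher and 7.96% lower at an unadjusted p under 0.05, 5.11% higher and 2.98% lower with DESeq2, and 2.97% higher and 1.82% lower in the fit with pairs. Genes named below for a call by DESeq2 or in that fit were picked after their values were seen. Of 6 receptor chains and kinases, 0 were called in any comparison by edgeR, with or without pairs, or by DESeq2. For H2O2/saline against control 2 were higher at an unadjusted p under 0.05 and 0 lower. The 2 were Ifnar1 (log2 fold change 0.65, edgeR adjusted p = 0.181) and Ifnar2 (0.55, adjusted p = 0.202). The median log2 fold changes of the 6 were 0.45 for H2O2/saline over control, −0.03 for SB431542 over saline and 0.26 for SB431542 over control. The kinases Tyk2 and Jak1 had group means of 51.8 ± 7.42, 52.0 ± 6.05 and 65.9 ± 4.29 CPM and 60.8 ± 6.15, 47.7 ± 8.05 and 54.2 ± 3.88 CPM, in the order control, H2O2/saline and H2O2/SB431542. Of 17 further nucleic acid sensors and adaptors, edgeR called 0, with medians of 0.23, 0.05 and 0.50 in the same order of comparisons. In H2O2/saline against control 6 of them were higher at an unadjusted p under 0.05, DESeq2 called 4 (Irf5, Ikbke, Tmem173 and Mb21d1) and the fit with pairs called Irf5 and Ikbke. Unc93b1, which carries Toll-like receptors to endosomes, was at 84.7 ± 7.24, 126 ± 24.2 and 106 ± 26.2 CPM and Irf3 at 89.2 ± 14.1, 93.7 ± 15.9 and 87.6 ± 14.8 CPM. Of 9 negative regulators edgeR called 0, and DESeq2 and the fit with pairs both called Socs3 and Ptpn6 higher in H2O2/saline than in control, which were also the 2 higher at an unadjusted p under 0.05. The medians of the 9 were −0.16, 0.05 and −0.01. Socs3, an inhibitor of cytokine receptor signalling, was at 8.43, 9.16 and 8.40 CPM in the controls, 12.9, 51.1 and 40.2 in H2O2/saline and 13.6, 14.5 and 15.9 in H2O2/SB431542. All treated libraries were above the controls, with H2O2/saline 2 and 3 far above the rest. It was 4.01-fold control in H2O2/saline (95% interval 2.24 to 7.17, edgeR adjusted p = 0.0600, and 0.0199 in the fit with pairs), and SB431542 differed from saline by −1.24 on the log2 scale (−2.06 to −0.43, edgeR adjusted p = 0.528). Ptpn11, a phosphatase, and Irf2, which competes for the same element, gave 97.3 ± 17.8, 78.2 ± 8.19 and 91.3 ± 6.43 CPM and 38.1 ± 2.16, 32.8 ± 7.33 and 36.8 ± 3.48 CPM.

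A wider list of 53 other interferon-induced genes, of which 52 were tested, had smaller medians of 0.47, 0.00 and 0.52, and 0 were called by edgeR. In the fit with pairs 6 were called higher in H2O2/saline than in control (background 2.97%), namely Lgals9, Ly6e, Lgals3bp, Oas1g, Ifitm3 and Uba7. At an unadjusted p under 0.05, 19 were higher and 2 lower in H2O2/saline than in control (background 9.88% and 7.96%). With SB431542, 2 were higher and 5 lower than with saline (background 3.86% and 4.98%), and 15 were higher and 1 lower than in control (background 4.36% and 3.24%). DESeq2 called 10 higher in H2O2/saline (background 5.11%) and 6 higher with SB431542 (0.839%), both against control. It called 1, Ifitm1, lower with SB431542 than with saline (0.17%). Ly6e, a membrane protein of the Ly6 family, was at 233, 255 and 229 CPM in the controls, 469, 975.1 and 884 in H2O2/saline and 367, 658 and 489.7 in H2O2/SB431542. Every treated library was above the controls, and the highest SB431542 library was below H2O2/saline 2 and 3. Lgals3bp, a secreted glycoprotein, had group means of 218 ± 53.7, 469.9 ± 113 and 402 ± 39.9 CPM. Of 8 tested genes that interferon gamma favours, edgeR called 0, and their medians were 0.18, 0.28 and 0.21. In H2O2/saline against control Ciita was higher and Nos2 lower at an unadjusted p under 0.05, with DESeq2 and in the fit with pairs. The receptor chain Ifngr2 was at 34.8 ± 10.7, 39.3 ± 7.55 and 34.8 ± 0.896 CPM and the factor Irf8 at 26.7 ± 6.59, 26.7 ± 6.62 and 26.7 ± 5.26 CPM.

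**Figure D4:**
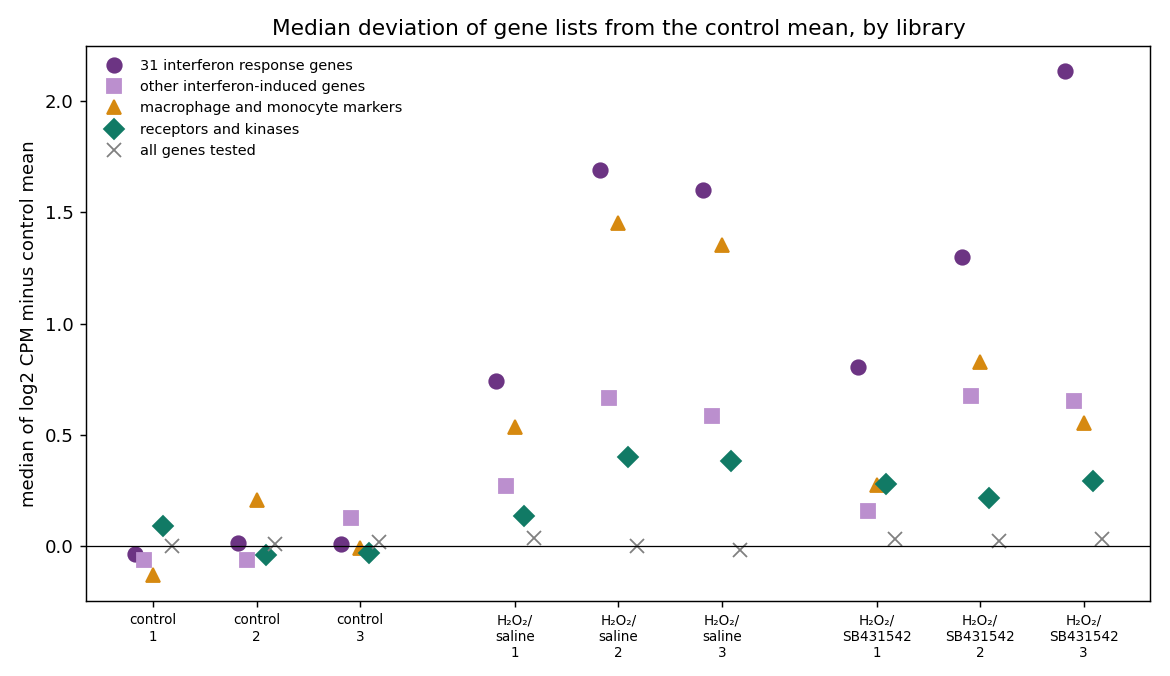
Each point is the median over a gene list of log2 CPM minus the control mean in 1 library, for the members, 52 other interferon-induced genes, 15 macrophage and monocyte markers, 6 receptors and kinases, and all 19314 genes tested. The members reach 1.69 in H2O2/saline 2 and 2.13 in H2O2/SB431542 3, macrophage markers reach 1.45 in H2O2/saline 2 and 0.55 in H2O2/SB431542 3, and all genes stay near 0.

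Immune cell markers stood higher in the same libraries in part. Of the 15 macrophage and monocyte markers, all tested, edgeR without pairs called 0 in any comparison. In H2O2/saline against control 13 had a positive log2 fold change, the median was 1.16, 10 were higher at an unadjusted p under 0.05 (background 9.88%), DESeq2 called 9 (5.11%) and the fit with pairs called 8 higher (2.97%). Their summed level was 391 to 498 CPM in control, 658 to 1080 in H2O2/saline and 489 to 826 with SB431542. The complement gene C1qb, made by tissue macrophages, was at 76.3, 102 and 75.6 CPM in the controls, 133, 241 and 231 in H2O2/saline and 89.4, 191 and 125 in H2O2/SB431542, and C1qa had group means of 78.3 ± 5.67, 186 ± 53.7 and 122 ± 42.2 CPM. Between SB431542 and saline the macrophage median was −0.47, with 6 markers lower at an unadjusted p under 0.05 (background 4.98%) and 0 called by DESeq2 or in the fit with pairs, where the members' median was −0.14. By library, the macrophage median was 0.53, 1.45 and 1.35 in H2O2/saline 1, 2 and 3, in the same order as the members' 0.74, 1.69 and 1.60. In H2O2/SB431542 1, 2 and 3 it was 0.27, 0.83 and 0.55, where the members' was 0.80, 1.30 and 2.13. Library 1 was thus the lowest for both lists in both treated groups, and the order of H2O2/SB431542 2 and 3 differed. The part of these cells in the members' levels was not tested.

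Of 9 neutrophil markers 5 were tested, and Ly6g, Camp, Mmp8 and Ngp did not pass the filter. Of the 5, edgeR called 0, 4 were higher in H2O2/saline than in control at an unadjusted p under 0.05 (background 9.88%), DESeq2 called Csf3r and Retnlg (5.11%) and the fit with pairs called Csf3r (2.97%). The summed level of all 9 was 1.005 to 2.75 CPM in control, 3.21 to 17.5 in H2O2/saline and 2.49 to 11.6 with SB431542. The receptor gene Csf3r was at 1.14, 0.924 and 0.515 CPM in the controls, 1.27, 7.84 and 6.44 in H2O2/saline and 1.69, 2.77 and 1.67 in H2O2/SB431542 and Retnlg had group means of 0.245 ± 0.266, 2.48 ± 2.23 and 0.604 ± 0.559 CPM. Both had their highest values in H2O2/saline 2 and 3, and control and SB431542 libraries lay lower. Plasmacytoid dendritic cells are known as makers of type I interferon, and their 8 markers summed to 29.1 to 49.7 CPM in control, 27.2 to 36.2 in H2O2/saline and 29.8 to 42.5 with SB431542. Of these 8 edgeR called 0 in any comparison, with 2 higher and 1 lower in H2O2/saline than in control at an unadjusted p under 0.05, and Runx2 alone called higher there by DESeq2 and in the fit with pairs. The defining marker Siglech was at 0.740, 0.924 and 2.22 CPM in the controls, 1.68, 0.259 and 0.545 in H2O2/saline and 0.700, 0.625 and 0.571 in H2O2/SB431542. Its H2O2/saline libraries overlapped both other groups, and every SB431542 library lay below every control (edgeR adjusted p = 0.867), as in 6.49% of all genes. Tcf4 and Smim5, not restricted to that cell, had 14.8 ± 5.07, 13.0 ± 4.03 and 15.1 ± 4.27 CPM and 18.0 ± 5.71, 11.5 ± 6.21 and 13.2 ± 2.13 CPM.

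The summed level of 10 T and NK cell markers was 6.13 to 8.24 CPM in control, 9.10 to 14.9 in H2O2/saline and 6.15 to 12.02 with SB431542, with Lck at 3.32 ± 0.410, 4.49 ± 1.14 and 4.42 ± 1.80 CPM and Nkg7 at 0.892 ± 0.168, 1.77 ± 1.33 and 1.06 ± 0.692 CPM. For 6 B cell markers the sums were 6.36 to 12.2, 12.8 to 35.7 and 9.30 to 15.4 CPM, with Ighm at 7.69 ± 3.50, 18.8 ± 10.4 and 10.1 ± 2.65 CPM and Cd79b at 0.790 ± 0.487, 1.40 ± 0.778 and 1.14 ± 0.277 CPM. H2O2/saline 1, the saline library with the lowest median of the members, held the highest Ighm (30.7 CPM) and Nkg7 (3.29 CPM). Among tissue cells the median log2 fold changes for H2O2/saline over control, SB431542 over saline and SB431542 over control were −0.40, 0.12 and −0.18 for urothelium. They were 0.71, 0.00 and 0.54 for fibroblasts, 0.72, −0.41 and 0.15 for endothelium, −0.36, −0.14 and −0.51 for smooth muscle and −0.61, −0.07 and −0.87 for skeletal muscle. Fat cell markers summed to 0.206 to 83.9 CPM in control, 0.310 to 48.3 in H2O2/saline and 0.625 to 20.2 with SB431542, the highest being library 1 each time. The leading markers of these tissues were Upk1a and Upk3a (group means 8083 ± 2504, 4689 ± 2775 and 5079 ± 855 CPM and 4706 ± 620.0, 2450 ± 1443 and 2999 ± 315 CPM), Col1a1 and Col1a2 (1067 ± 435, 1767 ± 431 and 1846 ± 754 CPM and 998 ± 323, 1665 ± 103 and 1602 ± 371 CPM) and Vwf and Pecam1 (77.7 ± 28.8, 132 ± 29.6 and 112 ± 29.5 CPM and 21.0 ± 3.43, 33.5 ± 10.1 and 23.6 ± 2.19 CPM). In each list from T and NK cells to fat cells edgeR called 0 markers in any comparison. At an unadjusted p under 0.05 the most in 1 direction was 4 of 6, for endothelium in H2O2/saline over control (background 9.88% higher). DESeq2 called at most 1 marker of a list in any comparison. For H2O2/saline against control the DESeq2 calls were Ighm, Krt5, Col3a1 and Cdh5 higher and Myh11 and Tcap lower (background 5.11% and 2.98%). The calls in the fit with pairs were Krt5, Col3a1 and Cdh5 higher and Upk1a and Upk2 lower (background 2.97% and 1.82%). The part of these cells in the members' levels was not tested.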

How the data were processed

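Per the labels, poly-A RNA of total bladder was sequenced from 9 mice, 3 a group. The authors deposited 1 table with estimated counts per gene and library (31.97% of nonzero values whole) and normalized log2 values centred on each gene, made with Strand NGS and, per the submitters' processing notes, build GRCm39. How reads were assigned to genes was not stated by any source consulted.

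Counts were rounded and tested in R 4.3.3 with edgeR 4.0.16 (filterByExpr, TMM factors, a mean per group over all 9 libraries, quasi-likelihood test, Benjamini-Hochberg adjustment over 19314 genes). A gene was called at an adjusted p under 0.05, and log2 CPM used a prior count of 2. As this test gives no standard error, the SE was derived as the absolute log2 fold change over the square root of F. The 95% intervals of fold changes used that SE and a t quantile. Depth was 37329213 to 41055328 counts a library, and count intervals (95%, exact Clopper-Pearson) cover counting error only. Alternatives were DESeq2 1.42.0, limma 3.58.1 with voom or on the deposited log2 values, other factors and filters, a replicate block, and leaving out each library. Scripts were tested on simulated data. Promoter motifs were searched in Python 3.11.15, and near-identical transcripts (90% identity or more) were found with BLAST 2.17.0.

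Labels number the libraries 1 to 3 in every group without saying what a number shares. Deviations of equal-numbered libraries correlated at 0.312, 0.119 and 0.112 between H2O2/saline and control and at 0.514, 0.201 and 0.129 between H2O2/SB431542 and H2O2/saline. Between H2O2/SB431542 and control they were 0.321, 0.0399 and 0.0770. Unequal numbers 2 and 3 correlated at 0.0528 and 0.0801, at 0.183 and 0.121, and at 0.129 and 0.0999 in the same order, so mainly library 1 stood apart. The fit with pairs is thus an alternative only. It stands beside results of the first 2 comparisons where it changes a call, and its calls in the last are given at the end. The 31 members and all lists were chosen with earlier results of these data known. All members are named, and from each list the genes called (at most 4) and the 2 with the highest mean CPM. Oas1g, Siglech, Ifnb1, Ifng, Socs3, Ifnar1 and Ifnar2 were named in addition after their values were seen. Genes called only by DESeq2 or with pairs were named on the same footing. 1 gene was taken out of a pathway list and is not reported here, and list genes that are not named were only counted.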

Additional observations from a re-analysis of the deposited data

How the results depend on the processing

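The number of members called depended on the model, the filter and single libraries, and the cause was not tested. Percentages in brackets are the shares of all genes tested that were called higher in the same setting. For H2O2/saline against control, 2 were called higher (0.0466%), against 17 with DESeq2 (5.11%), 0 with limma-voom (0.0311%), 18 with no filter (3.08%) and 10 of 25 with at least 10 counts in every library (1.46%). The replicate block called 16 (2.97%) and limma on the authors' log2 values 0 (0.0311%). Replicates 2 and 3 only, chosen after seeing the data, gave 17 (6.98%) and 1 lower (6.07% of all genes lower), and leaving out each library gave 0 to 17 (0% to 5.52%). For SB431542 against saline, 0 were called higher (0%), 1 with DESeq2 (0.0754%) and 1 with no filter (0.153%), 0 with the replicate block (0%) and 0 to 0 with each library left out (0% to 0.435%). For SB431542 against control, 0 were called (0.0104%), against 13 with DESeq2 (0.839%), 2 with upper-quartile factors (0.0207%), 15 with no filter (0.996%) and 2 with at least 10 counts (0.0338%). With only the 2 groups compared 2 were called (0.104%), with replicates 2 and 3 only 13 (1.61%), and with each library left out 0 to 6 (0% to 0.347%). The replicate block, 1 fit over all 9 libraries, called 2 in that comparison, Irf7 and Oas1a (0.15%). In the other comparisons the calls with the block are given beside the results. The medians ranged from 1.10 to 1.61, −0.40 to 0.01 and 1.03 to 1.82 in the same order with each library left out. Signs turned for members near 0 and for some further from it. For SB431542 against saline, Rsad2 went from 1.41 to −0.14 and Ifit1 from 0.87 to −0.02 without H2O2/SB431542 3. For H2O2/saline against control, Herc6 went to −0.068 with limma-voom, −0.13 with the block, −0.045 on the authors' values and −0.35 with replicates 2 and 3, and Cmpk2 to −0.053 with replicates 2 and 3. For SB431542 against saline, Oas2 went to 0.17 with limma-voom and 0.25 on the authors' values, Ifit3b to −0.38, −0.40 and, with the block, −0.30, and Herc6 to 0.11 with replicates 2 and 3. For SB431542 against control, Irf1 and Ifih1 went to −0.040 and −0.10 with replicates 2 and 3. With each library left out, the ranges that crossed 0 for H2O2/saline against control were −0.42 to 0.71 (Cmpk2), −0.34 to 0.59 (Herc6), −0.89 to 0.0077 (Ifih1) and −1.52 to 0.33 (Mx2). For SB431542 against control they were −0.39 to 0.33 (Herc6), −0.24 to 0.67 (Ifih1), −0.019 to 0.24 (Irf1) and −0.31 to 0.21 (Parp14). For SB431542 against saline they were −0.64 to 0.29 (Herc6), −0.025 to 1.30 (Ifit1), −0.48 to 0.55 (Ifit3), −1.18 to 0.73 (Ifit3b), −0.34 to 0.14 (Irf9), −0.89 to 0.0052 (Isg15), −0.96 to 0.38 (Mx1), −0.51 to 0.41 (Oas2), −0.14 to 1.87 (Rsad2) and −0.10 to 0.10 (Usp18). Where a group was left with 2 libraries, their spread was pooled with the other groups. Of the 31 members, 25 had at least 10 counts in every library, and for the others depth limits the fold.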
